A study of Mus musculus with 8 samples.

Results

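The genes described here encode 10 receptors of neuropeptides: the vasopressin receptor Avpr1a, the oxytocin receptor Oxtr, the somatostatin receptors Sstr1, Sstr2, Sstr3 and Sstr4, the neurotensin receptors Ntsr1 and Ntsr2, and the neuropeptide Y receptors Npy1r and Npy2r. They are 10 of the 19938 genes measured, were matched by symbol to the array's annotation, and each had 1 probe set. They were chosen by a receptor family list drawn up with the log2 differences between mutant and control already known, so those differences are given as a description. Whether a receptor passed the threshold of the fit over all genes is stated as part of that description, with no p-value, and nothing is concluded from it. The tissue was neocortical layers II to IV, cut by laser from sections of mouse pups at postnatal day 2, with 1 Affymetrix array for the total RNA of each pup. The 4 control pups were Bcl11a flox/+;Emx1 IRESCre/+ and the 4 mutant pups Bcl11a flox/flox;Emx1 IRESCre/+. Both groups thus carry Cre, expressed from the Emx1 locus in the lineage of cortical excitatory neurons and much of the glia, and the controls have 1 floxed allele of the zinc finger transcription factor Bcl11a against 2 in the mutants. Cells outside that lineage, interneurons and microglia among them, keep the gene. Bcl11a itself, the targeted gene, read between 10.34 and 10.59 on the log2 scale in the controls and between 8.37 and 8.85 in the mutants. Bcl6, a transcriptional repressor also named in the series title, fell from 7.88 ± 0.23 to 6.06 ± 0.21 (SD, n = 4).

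Neuropeptides are released mostly outside the synaptic cleft and act over longer distances and times than glutamate or GABA, through receptors of the G protein-coupled family. Avpr1a, Oxtr and Ntsr1 couple mainly to Gq proteins, which activate phospholipase C and raise intracellular calcium. The somatostatin and neuropeptide Y receptors couple to Gi and Go proteins, which lower cyclic AMP and open inwardly rectifying potassium channels. In the cortex somatostatin and neuropeptide Y are made chiefly by interneurons, while many of their receptors lie on projection neurons. Ntsr1 is widely used as a marker of the corticothalamic neurons of layer VI.

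The DNA upstream of the start sites is shown for the 3 receptor genes with the largest differences, since the deleted protein and Bcl6 both bind DNA. The sequences are the 250 bases before the start site in RefSeq, build GRCm38.p6, at chr10:122448249-122448498 (plus strand) for Avpr1a, chr11:113619077-113619326 (plus strand) for Sstr2 and chr2:180499726-180499975 (plus strand) for Ntsr1. Capitals mark TATAAA in Avpr1a and TGACGTCA, the cyclic AMP response element, in Sstr2.
Avpr1a: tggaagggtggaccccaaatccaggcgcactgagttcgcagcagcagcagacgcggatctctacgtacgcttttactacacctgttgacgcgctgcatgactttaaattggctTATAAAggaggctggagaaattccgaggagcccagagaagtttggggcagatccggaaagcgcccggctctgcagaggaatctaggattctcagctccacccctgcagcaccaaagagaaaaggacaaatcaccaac
Sstr2: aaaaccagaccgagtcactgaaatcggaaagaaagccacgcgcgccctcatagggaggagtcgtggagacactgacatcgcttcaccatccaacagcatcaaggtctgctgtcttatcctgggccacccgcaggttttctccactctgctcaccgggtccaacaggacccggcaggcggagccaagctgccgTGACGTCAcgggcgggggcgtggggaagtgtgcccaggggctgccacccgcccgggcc
Ntsr1: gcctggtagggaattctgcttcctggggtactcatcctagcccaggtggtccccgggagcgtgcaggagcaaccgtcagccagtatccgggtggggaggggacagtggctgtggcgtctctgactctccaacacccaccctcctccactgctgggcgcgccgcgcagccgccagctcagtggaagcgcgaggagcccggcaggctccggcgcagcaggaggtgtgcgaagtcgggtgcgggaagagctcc

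Upstream sequence was matched for 9 of the 10 genes, Sstr1 being the exception, with 10 start sites in all because Sstr3 has 2. Both strands were searched for 5 motifs. TGACCA, the motif bound by Bcl11a, was in 0 of the 10 windows, against 11.4% of 32851 windows of the same length. TTCNNNGAA, the form shared by Bcl6 and STAT factors, was in that of Ntsr2 and in 7.02% of all windows, and the narrower TTCCTNGAA that it contains was in 0 of the 10 and 1.31% of all. TGACGTCA was found for Sstr2 (1.55% of all windows) and TATAAA for Avpr1a (12.4%). The GC content was 53.6% for Avpr1a, 63.6% for Sstr2 and 68.4% for Ntsr1, where the median of all windows was 52.4%. A match is a string of letters and not a measured site, and a window without one says nothing about binding.

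Avpr1a and Sstr2 were higher in the mutant layers by 3.51-fold and 3.0-fold, Sstr3 was higher by 1.39-fold, and Ntsr1 was lower by 1.87-fold. These 4 of the 10 receptors had an adjusted p under 0.05 in limma's fit over all genes, 3 higher and 1 lower, against 4.15% of all genes (2.36% higher and 1.79% lower); since the contrast chose the genes, nothing is read from that count. In the same 4 the values of control and mutant pups did not overlap, which held for 9.25% of all genes. The other 6 receptors did not pass. The median log2 difference (mutant minus control, here and throughout) was 0.36 over the 10 receptors and 0.02 over all genes. Of the 10, 8 were above 0, against 11458 of all 19938 genes. These differences were known when the receptors were chosen, so nothing is read from the median or from this count either.

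**Figure D1:**
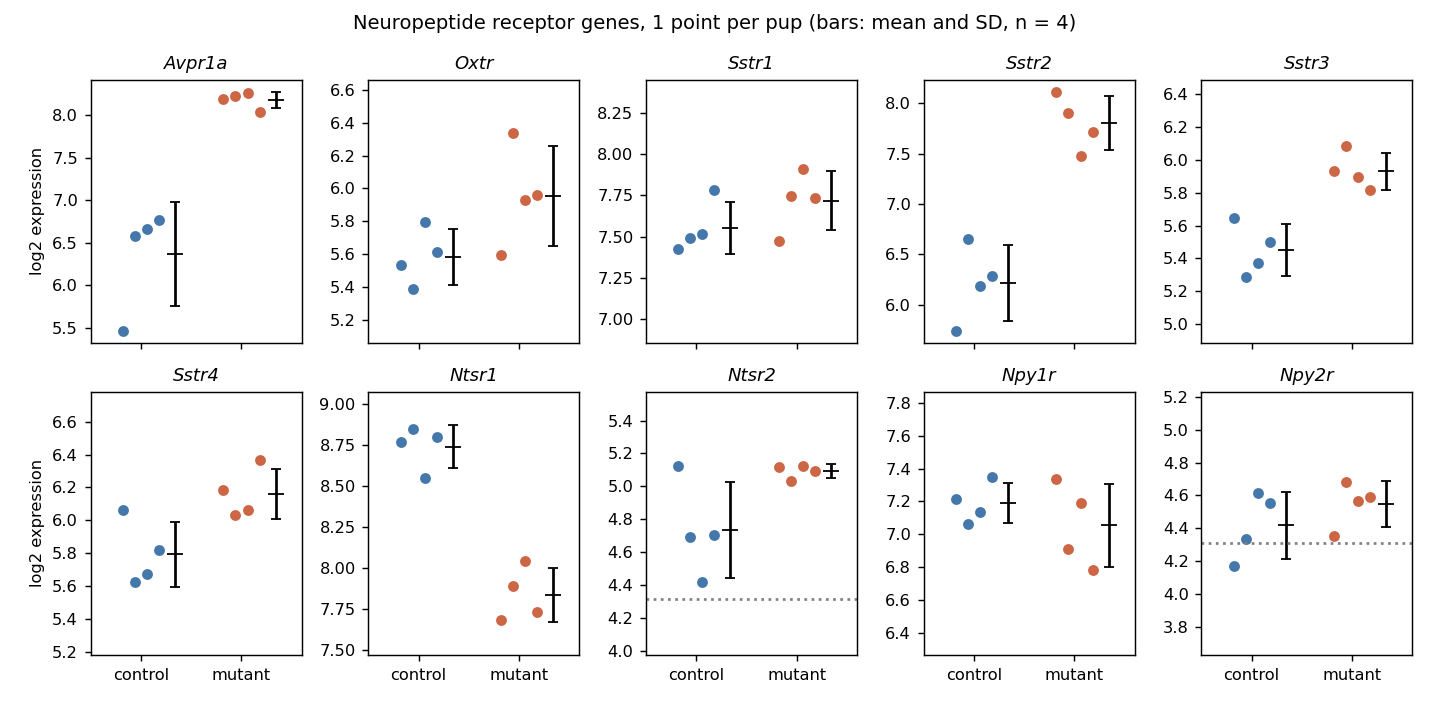
Log2 expression of each of the 10 receptor genes (vertical axes, each with its own range) in the 4 control pups (blue) and 4 mutant pups (orange), 1 point per pup, with the mean and SD beside them; the dotted line is the empirical floor of 4.31. Control and mutant points are apart for Avpr1a, Sstr2, Sstr3 and Ntsr1 and overlap for the other 6 genes.

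The arrays were alike in depth of signal, with medians of 4.83 to 4.91 and correlations across genes of 0.991 to 0.997. Control 1 stood apart on the second principal component (17.4% of the variance) and had the lowest array weight, 0.556. For several differences that change call or move without it, the value with it left out is also given. Others, such as those of Npy and Nr4a2, also move and are given with all arrays only. Xist was high and 3 Y-linked genes low in 2 control pups and 1 mutant pup; the highest Y-linked reading in those pups, 4.31, serves as an empirical floor at or below which a reading may be background. Markers of excitatory cortical neurons, the labelled tissue, were above the floor in every array (6 of 6), and of these 1 rose, 2 fell and 3 did not pass. Neurod6 differed by 0.70, Slc17a6 by -0.51 and Emx1 by -0.49. Their summed level, as log2, was higher in the mutants, at 12.30 to 12.46 against 12.08 to 12.19 in the controls. The mean of their log2 values overlapped, at 8.95 to 9.01 in the mutants and 8.88 to 9.08 in the controls. In RNA from cut tissue layers, a change in the share of cells that express a gene and a change in RNA per cell cannot be told apart.

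Avpr1a, the vasopressin receptor V1a, read 5.46, 6.58, 6.66 and 6.76 in controls 1 to 4 and 8.19, 8.23, 8.26 and 8.04 in mutants 1 to 4. The mutant pups lay close together and every one was at least 1.27 above the highest control, while control 1 lay far below the other controls. The mean rose from 6.37 ± 0.61 to 8.18 ± 0.10 (SD, n = 4), a log2 difference of 1.81 (SE 0.22) or 3.51-fold, with a 95% interval of 2.53 to 4.86-fold. Without control 1 the difference was 1.51 (SE 0.08). The related oxytocin receptor gene Oxtr read 5.54, 5.39, 5.80 and 5.62 in the controls and 5.60, 6.34, 5.93 and 5.96 in the mutants. Mutants 2, 3 and 4 exceeded all controls and mutant 1 did not, and the difference of 0.37 (95% interval 0.09 to 0.66) did not pass. Left without mutant 1, Oxtr passed, with a difference of 0.49. The peptides that bind these receptors did not pass: the vasopressin gene Avp differed by -0.10 (SE 0.10) and the oxytocin gene Oxt by 0.005 (SE 0.10), or by -0.01 and 0.11 without control 1.

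Of the somatostatin receptors, Sstr2 had the largest difference. It read 5.74, 6.65, 6.19 and 6.29 in controls 1 to 4 and 8.12, 7.90, 7.48 and 7.71 in mutants 1 to 4. The groups were 0.83 apart, with control 1 lowest again. The mean rose from 6.22 ± 0.38 to 7.80 ± 0.27 (SD, n = 4), a difference of 1.58 (SE 0.17) or 3.0-fold, with a 95% interval of 2.33 to 3.85-fold; without control 1 it was 1.42 (SE 0.14). Sstr3, a receptor found on neuronal primary cilia, rose by less. Its readings were 5.65, 5.29, 5.37 and 5.50 in the controls and 5.93, 6.08, 5.90 and 5.81 in the mutants, and the gap between the groups was 0.17. The difference was 0.48 (SE 0.09), or 1.39-fold with a 95% interval of 1.23 to 1.59-fold.

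Sstr4 and Sstr1 had overlapping groups. Sstr4 read 6.06, 5.63, 5.67 and 5.82 in the controls and 6.19, 6.03, 6.06 and 6.37 in the mutants, where only control 1 reached into the mutant range. Its difference of 0.37 (95% interval 0.15 to 0.59) did not pass with all arrays, and passed without control 1, where it was 0.46. Sstr1 lay between 7.42 and 7.78 in the controls and between 7.48 and 7.91 in the mutants, with a difference of 0.17 (95% interval -0.05 to 0.38), and did not pass. The ligand genes of this family did not pass with all arrays: the somatostatin gene Sst differed by -0.26 (SE 0.16) and the cortistatin gene Cort by -0.09 (SE 0.08; -0.02 without control 1). Without control 1, which had the lowest Sst reading (6.54 against 7.18 to 7.40 in the other controls), Sst was lower in the mutant by limma (difference -0.46, adjusted p = 0.00726).

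The neurotensin receptors differed in direction. Ntsr1 read 8.77, 8.84, 8.55 and 8.80 in controls 1 to 4 and 7.68, 7.89, 8.04 and 7.73 in mutants 1 to 4. All mutants lay below all controls, by at least 0.50. The mean fell from 8.74 ± 0.13 to 7.84 ± 0.16 (SD, n = 4), a difference of -0.90 (SE 0.09) or 1.87-fold, with a 95% interval of 1.63 to 2.14-fold. Ntsr2, a neurotensin receptor with prominent expression in astrocytes, read 5.12, 4.69, 4.42 and 4.71 in the controls and 5.12, 5.03, 5.12 and 5.09 in the mutants. The mutant values lay close together, and control 1 was as high as they were. The difference of 0.36 (95% interval 0.11 to 0.61) did not pass, and passed without control 1, where it was 0.49. The neurotensin gene Nts read at most 3.12 in any array, below the floor.

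Among the neuropeptide Y receptors neither gene passed, while the ligand gene fell. Npy1r read 7.22, 7.06, 7.14 and 7.35 in the controls and 7.33, 6.91, 7.19 and 6.78 in the mutants, with a difference of -0.14 (95% interval -0.38 to 0.10). Npy2r lay between 4.17 and 4.61 in the controls and between 4.35 and 4.68 in the mutants, close to the floor, with a difference of 0.13 (95% interval -0.09 to 0.35), or 0.05 without control 1. Npy read 9.27, 8.67, 8.62 and 8.49 in controls 1 to 4 and 7.91, 6.90, 6.58 and 7.15 in mutants 1 to 4. The difference in Npy was -1.63 (SE 0.23, limma adjusted p = 9.39e-04, lower in 4 of 4 mutants), and its groups were apart in every pup where those of its receptors overlapped. The genes of the related peptides, Pyy and Ppy, differed by 0.06 each and did not pass, so that of 8 ligand genes 1 fell, 0 rose and 7 did not pass.

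**Figure D2:**
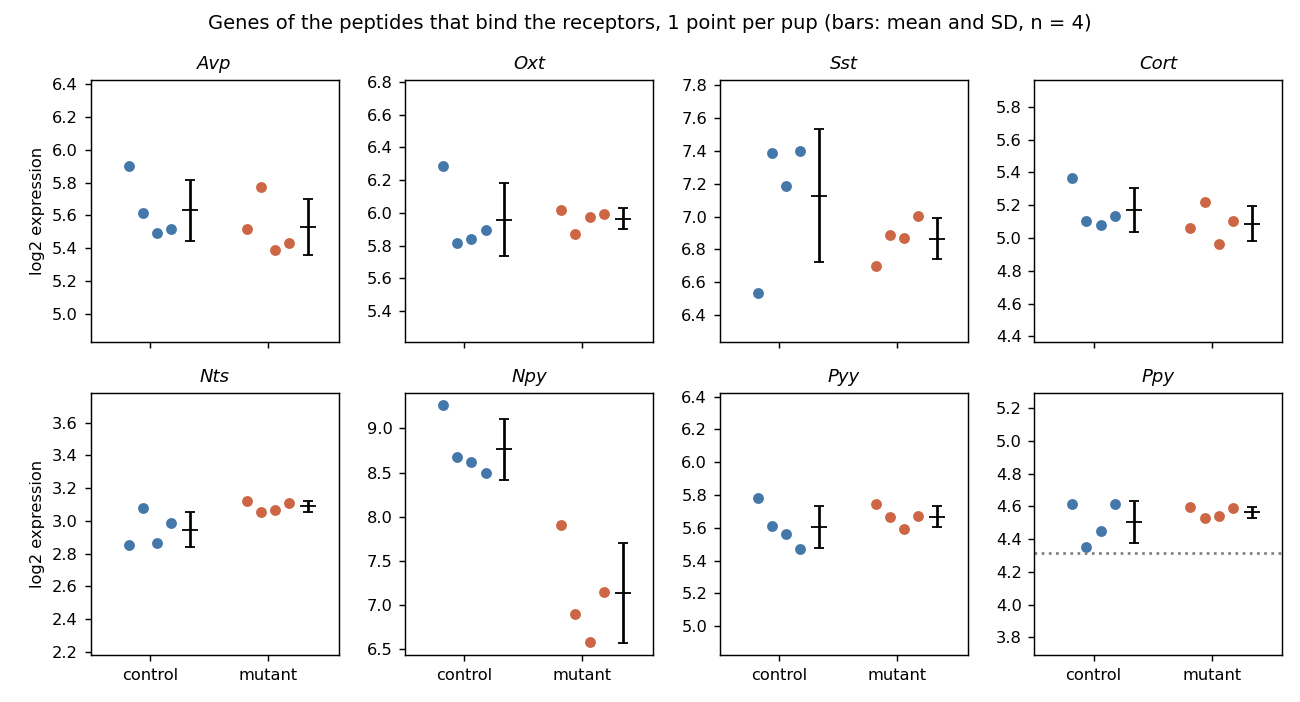
Log2 expression of the genes of the 8 peptides that bind these receptors (vertical axes, each with its own range), 1 point per pup, with the mean and SD beside them and the empirical floor dotted where it falls in range. Npy is lower in all 4 mutant pups than in any control, whereas the other 7 genes overlap between the groups.

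Over the 8 fits that each leave out 1 array, the difference ran from 1.51 to 1.94 for Avpr1a, from 1.42 to 1.73 for Sstr2, from 0.43 to 0.54 for Sstr3 and from -0.97 to -0.85 for Ntsr1. Estimated without moderation of the variances, Sstr2 and Ntsr1 passed and Avpr1a and Sstr3 did not.

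**Figure D3:**
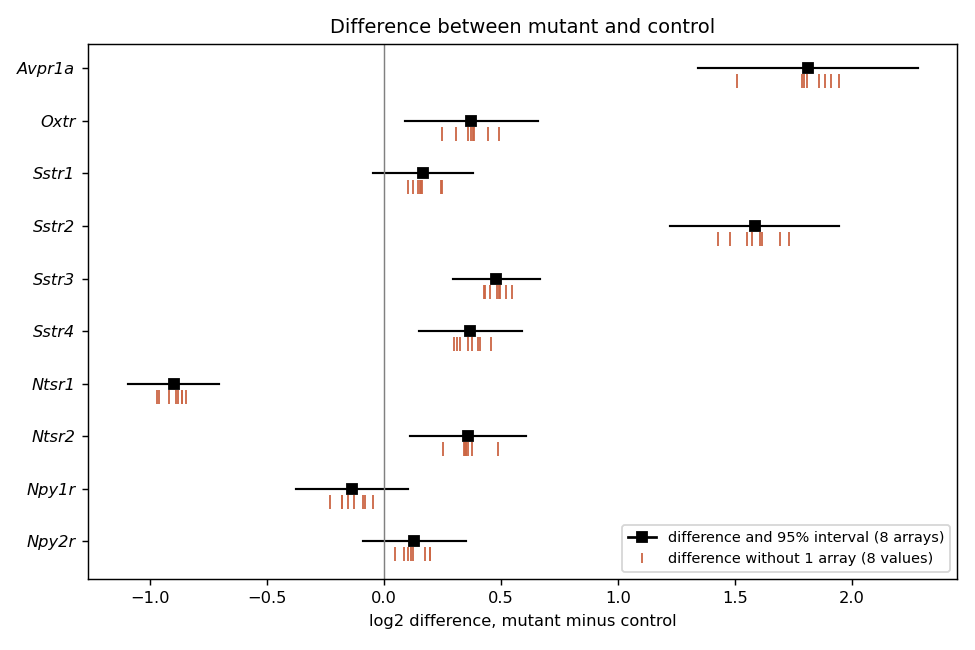
Log2 difference between mutant and control (horizontal axis) for each receptor gene, as a square with its 95% interval from the fit on 8 arrays, above ticks for the 8 values obtained with 1 array left out. The ticks of every gene stay on the same side of 0; the lowest tick of Avpr1a, 1.51, is the fit without control 1.

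The list of 59 other neuropeptide receptors, of which 58 were measured, held 2 that rose, 3 that fell and 53 that did not pass, or 8.62% called. Their median log2 difference was 0.02. Both group means were at or below the floor for 25 of the 58, 0 of the 10 receptors above and 6121 of all 19938 genes. The 10 were chosen with their differences known, so nothing is read from that contrast. The melanocortin receptor gene Mc4r rose from 7.32 ± 0.17 to 8.02 ± 0.10 (SD, n = 4; difference 0.70, limma adjusted p = 3.59e-04, higher in 4 of 4 mutants). Tacr1, the receptor of substance P, rose by 0.51 (limma adjusted p = 0.0135), a call that was lost without mutant 4 (0.0543). Crhr1, the receptor of corticotropin-releasing hormone, fell from 6.82 ± 0.18 to 5.98 ± 0.11 (SD, n = 4; difference -0.84, limma adjusted p = 1.23e-04, lower in 4 of 4 mutants). Prokr2, a prokineticin receptor, fell by 0.70 with overlapping groups (limma adjusted p = 0.0453), and Nmbr, the neuromedin B receptor, fell by 0.30 with both means below the floor (limma adjusted p = 0.0497). Without control 1 the difference in Prokr2 was -0.87. The call of Prokr2 was lost when any array other than control 1 was left out (limma adjusted p from 0.0557 to 0.137), and that of Nmbr without control 2, control 4 or any 1 mutant (0.0571 to 0.162).

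**Figure D4:**
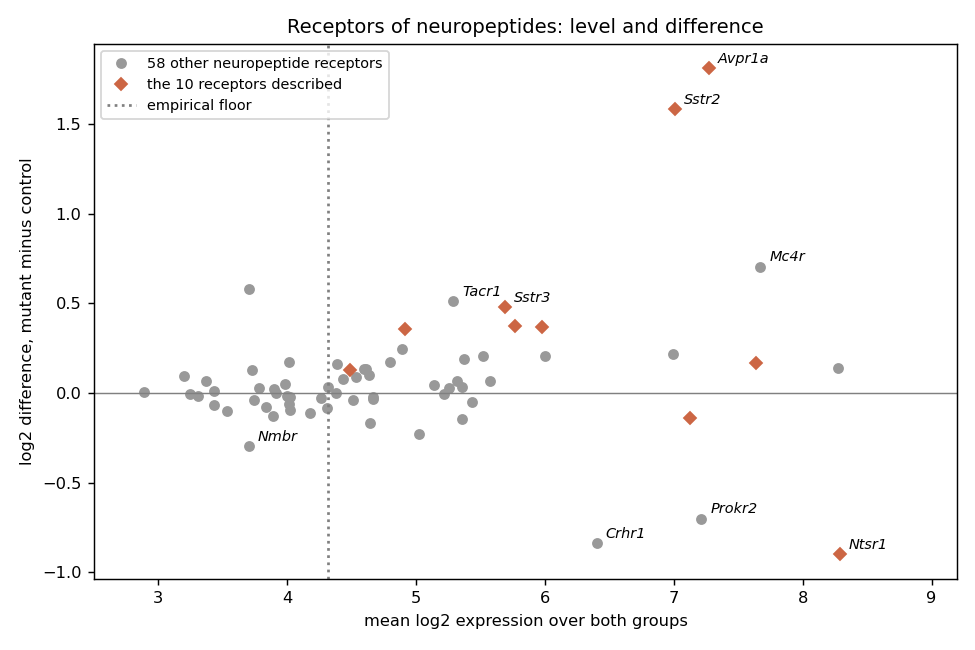
Log2 difference between mutant and control (vertical axis) against the mean log2 expression of the 2 groups (horizontal axis) for the 10 receptors described (diamonds) and the 58 others measured (circles); names mark the genes with an adjusted p under 0.05 and the dotted line is the empirical floor of 4.31. Avpr1a and Sstr2 lie highest, at 1.81 and 1.58, and most of the others lie near 0.

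Downstream of the receptors, 2 of 21 measured genes of G proteins, phospholipases, potassium channels, arrestins and receptor kinases fell, 0 rose and 19 did not pass, with a median difference of 0.01. Plcb1, a phospholipase C activated by Gq, fell by 0.41 on the log2 scale from 9.25 ± 0.07 (SD, n = 4; limma adjusted p = 0.00312). Kcnj3, a subunit of the potassium channels opened by Gi and Go, fell by 0.52 from 7.26 ± 0.16 (SD, n = 4; limma adjusted p = 0.00204). Each was lower in 4 of 4 mutants than in any control. The G protein genes Gnaq (difference 0.02), Gnai1 (0.19), Gnai2 (0.13) and Gnao1 (-0.07) did not pass. Of 12 enzymes that cleave peptides, Trhde, which degrades thyrotropin-releasing hormone, fell (-1.81, limma adjusted p = 3.83e-05, lower in 4 of 4 mutants), 0 rose and 11 did not pass. Without control 1 the difference in Trhde was -1.62.

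The genes whose values across the 8 arrays were nearest to those of a receptor were found from the root mean square difference, each gene taken relative to its own control mean. Since only the control mean was removed, this distance rests largely on the difference between mutant and control, and genes with a like difference come out nearest. Nearest to Avpr1a were Gfra2, the receptor of neurturin (0.32), Sstr2 (0.34) and Wscd1 (0.34). Nearest to Sstr2 were Wscd1 (0.25), the adhesion gene Flrt3 (0.27) and the semaphorin gene Sema3c (0.28). Nearest to Ntsr1 were the protocadherin gene Pcdhb5 (0.12), Tafa2 (0.14) and Frmd6 (0.15). The log2 differences of these genes were 2.13 for Gfra2, 1.42 for Wscd1, 1.23 for Flrt3 and 1.47 for Sema3c. They were -0.95 for Pcdhb5, -0.79 for Tafa2 and -0.83 for Frmd6. Whether these genes vary together with the receptors within a genotype was not tested.

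Markers of several cell types also differed between the groups, and their part in the receptor differences was not tested. Beside the rises of Avpr1a, Sstr2 and Sstr3, 3 of 7 markers of layer V projection neurons rose (Ldb2 by 1.38, Crim1 by 1.07, Pcp4 by 0.95) and 0 fell, and their summed level, as log2, ran from 9.98 to 10.82 in the controls and from 11.41 to 11.69 in the mutants. The low end was control 1 alone, and the other 3 controls lay between 10.70 and 10.82. Without control 1 the differences were 1.03 for Ldb2, 0.97 for Crim1 and 0.70 for Pcp4. The call of Pcp4 was lost without mutant 3 or mutant 4 (limma adjusted p = 0.0663 and 0.0754), and those of Pcp4 and Ldb2 with an intensity trend (0.146 and 0.116) and without moderation (0.25 and 0.185). The layer V regulators Fezf2 (0.80) and Bcl11b (0.05) did not pass. Beside the fall of Ntsr1, 1 of 8 markers of layer VI and subplate neurons fell (Nr4a2, -2.15) and 0 rose. Their summed level overlapped, at 10.05 to 10.55 in the controls and 10.17 to 10.56 in the mutants. That sum rests mostly on the brightest marker, Tbr1 (9.90 in the controls, difference 0.21), which did not pass. The mean of their log2 values did not overlap, at 5.68 to 5.89 in the controls and 5.49 to 5.59 in the mutants. Nr4a2 had by far the largest difference in that mean, with scattered readings of 5.85, 8.15, 6.43 and 6.92 in controls 1 to 4. The other 7 did not pass, and their differences ran from -0.25 (Nxph4) to 0.21 (Tbr1). Of the 8 markers 5 lay above 0 and 3 below, with a median difference of 0.02. Of the 8, 6 were above the floor in every array. Most were dim in the controls, where Ntsr1 read 8.74. Cplx3 read 4.23, Nxph4 4.43, Ccn2 4.77, Foxp2 4.82, Syt6 5.30 and Tle4 5.95 there, whereas Nr4a2 (6.83) and Tbr1 were brighter. Of 11 upper-layer markers 5 fell, with Cux2 (-1.29) and Mdga1 (-1.07) foremost, and 0 rose with all arrays. Unc5d differed by 0.46 with groups that did not overlap and did not pass, but passed as higher without control 3 (0.56, limma adjusted p = 0.0211) and in 4 other alternatives, and 4 of the 11 lay above 0. The summed level was 12.78 to 12.88 in the controls and 12.55 to 12.74 in the mutants. Of 14 interneuron markers 2 fell, Npy and Dlx1 (-0.46), and 0 rose with all arrays. Calb2 differed by 0.86 with groups that did not overlap and did not pass, but passed as higher without control 1 (0.48, limma adjusted p = 0.0157). The summed level was 11.02 to 11.10 against 10.61 to 10.73, with Pvalb below the floor in every array. Npy and Dlx1 were also the brightest of these markers in the controls (8.76 and 8.74), and the fall of the sum rests largely on them. The mean of the log2 values, where each marker counts alike, was 6.60 to 6.77 against 6.44 to 6.54. By limma 0 of 7 astrocyte markers passed (2 at an unadjusted p under 0.05), and their summed level of 10.22 to 10.47 in the controls and 10.11 to 10.37 in the mutants overlapped, beside the difference in Ntsr2. Gfap (-0.32), Aldoc (-0.29) and Gja1 (-0.27) had the largest of these differences. Gfap passed as lower under 6 of 17 alternatives, among them without control 1 (-0.39, limma adjusted p = 0.0156) and without mutant 4 (-0.39, 0.0291), and Aldoc with the replicate number as a block (0.0240). By limma 0 of 5 oligodendrocyte lineage, 0 of 6 microglial and 0 of 7 endothelial markers passed (2, 1 and 3 at an unadjusted p under 0.05). The largest differences were those of Pdgfra (-0.28), Cspg4 (-0.27) and Olig2 (-0.19) in the oligodendrocyte lineage and of Kdr (-0.27), Flt1 (-0.23) and Slco1c1 (-0.18) in endothelium, where the groups of the latter 3 did not overlap. Of the 7 endothelial markers 6 lay below 0. The mean of their log2 values was 6.84 to 6.94 in the controls and 6.62 to 6.82 in the mutants. Their summed level overlapped, at 9.84 to 9.97 and 9.68 to 9.85. The microglial markers Aif1, P2ry12 and Tmem119 were at or below the floor in every array.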

How the data were processed

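The deposited table holds log2 expression values of 35556 probe sets on 8 Affymetrix GeneChip Mouse Gene 1.0 ST arrays, 1 per pup. Per the labels, the authors used BRB-ArrayTools; how the background was corrected and the arrays normalized and summarised, and which log base was used, is not given in the sources used here. Base 2 was assumed, and fold changes rest on it. Probe sets with 1 symbol in the platform annotation (21789) were kept, the brightest per gene, for 19938 genes, dim ones included. The comparison used limma 3.58.1 under R 4.3.3 (genotype alone, moderated variances, two-sided), with Benjamini-Hochberg adjustment over all genes and a threshold of 0.05. The number of arrays limits the precision: the median SE was 0.0766.

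The 10 receptors, the other gene lists and the settings were chosen with earlier results of these data known. The text names the receptors, Bcl11a, all ligands, and the other receptors, effectors and enzymes past the threshold. It also names the 3 nearest genes of receptors that passed with a difference of at least 0.5. Of cell type lists with a median beyond 0.1, up to 3 markers are named, so other markers past the threshold are not. Bcl6, Gnaq, Gnai1, Gnai2, Gnao1, Fezf2, Bcl11b, Nr4a2, Tbr1, Pvalb, Aif1, P2ry12 and Tmem119 were named after their values had been seen. So were Neurod6, Slc17a6, Emx1, Tle4, Foxp2, Syt6, Ccn2, Cplx3 and Nxph4. Motifs were also chosen then. On simulated data for the same 19938 genes, the fit recovered 56 of 67 genes changed by 0.5, 66 of 67 changed by 1 and 66 of 66 changed by 2 (log2), and 5.53% of its calls were false. Those rates belong to the simulation and are not a measured error rate of the comparison between mutant and control pups. How far an outlying array, or deviations shared by same-numbered pups, would alter them was not tested. Promoter sequences come from RefSeq (GRCm38.p6). Whether the pups were littermates is not stated.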

Additional observations from a re-analysis of the deposited data

Results flagged for a closer look

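In 5 of 102 groups of 4 pups (51 genes under the naming rule, in each genotype), 1 value lay far from the other 3; chance gives this in about 1 group in 20. Of the receptors this was Avpr1a alone, at 5.46 in control 1 against 6.58 to 6.76 in the other controls. Control 1 also stood apart for the oxytocin gene Oxt (6.29 against 5.81 to 5.89) and for the layer V marker Ldb2 (8.29 against 9.58 to 9.74). Kcnj3 was low in control 2 (7.03 against 7.32 to 7.35), and Flrt3 was high in mutant 1 (8.57 against 8.05 to 8.12).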

How the results depend on the processing

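Over 18 alternatives for each named gene (normalization, filters on dim genes, probe set choice, weights, moderation, the replicate block, inferred sex, and each array left out), or the 16 or 17 in which it was kept, the 10 receptors kept the sign of their difference. The count of receptors past the threshold was 4 of 10 and became 2 without variance moderation, where the count over all genes was 249 in place of 827; at a threshold of 0.01 the latter was 447. It lay between 4 and 6 under each of the other alternatives, with 6 without control 1 and with array weights. With the replicate block it was 5, Sstr4 being added, and 987 genes passed. Of the other named genes the block ended the call of Nmbr and added those of Unc5d, Gfap, Aldoc and Kdr. Same-numbered pups deviated together with correlations of 0.0558 to 0.295 across genes, and pups of unlike number with -0.169 to 0.0754. Control 2 correlated better with mutant 1 (0.0754) than with mutant 2. The numbers were not taken as pairs in the main fit, though pairing is not excluded. The count of other neuropeptide receptors, 5 of 58, became 3 with arrays centred on their medians, 3 without the dimmest 50% of genes (8 then measured), 2 without variance moderation, 2 at a threshold of 0.01 and 3 with inferred sex as a covariate. It ranged from 2 to 5 with each array left out. The count of ligand genes, 1, became 0 without variance moderation and ranged from 1 to 2 with each array left out.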

Other observations

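Sstr2 was lower in pups with high Xist within each genotype. It read 5.74 and 6.19 against 6.65 and 6.29 in the controls, and 7.48 against 7.71 to 8.12 in the mutants. The reading of 5.74 was control 1, the array with the lowest weight, and the mutants held 1 pup with high Xist. The pattern was picked out among the 10 receptors after their values had been seen. With inferred sex as a covariate the difference between mutant and control was 1.47 (SE 0.12) for Sstr2 and 1.73 (SE 0.22) for Avpr1a. An effect of sex itself was not tested.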
